A study of Mus musculus with 11 samples.

Results

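Protein disulfide isomerases (PDIs) are the enzymes of the endoplasmic reticulum (ER) that make, break and rearrange disulfide bonds in proteins on their way to secretion, and TXNDC5 (also called ERp46) is one of them. The mRNA levels of *Txndc5* and of 9 relatives that work with it or beside it (*P4hb*, *Pdia3*, *Pdia4*, *Pdia5*, *Pdia6*, *Erp44*, *Txndc12*, *Ero1a* and *Ero1b*) were compared in AML12 cells, a hepatocyte line from mouse liver. These 10 genes were chosen by name, as the rows of the count table that carry these gene names, out of 24849 genes in all. Each of them had a single entry in the table, and all 10 had enough counts to be tested in every comparison. RNA sequencing of polyadenylated RNA gave 11 libraries, 4 from knockout cells (KO), 3 from wild-type cells (WT) and 4 from knock-in cells (KI).

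All 3 groups are AML12 cells and no treatment is given for any of them. The KO cells carry a CRISPR/Cas9 break in *Txndc5* and, by the study's methods, a puromycin resistance gene inserted at that site, and they were selected with puromycin as stable cells, a selection not described for the WT cells. The labels call their genotype TXNDC5 Knockdown, although the sample titles say KO. The KI cells are labelled TXNDC5 Knockin, and the design text places the overexpressed TXNDC5 in ROSA26, a mouse locus used as a safe harbour for transgenes. Neither the species nor the promoter of that insert is given in the sources used here, so the counts on mouse *Txndc5* in KI may or may not include reads from it. Nothing says that the libraries of a group came from separate cultures, so the p-values measure the spread between these libraries, which may be technical.

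In the ER, ERO1 oxidases use molecular oxygen to form disulfide bonds and pass them to PDI family members, which in turn oxidize newly made proteins or correct wrong bonds by isomerization. Hepatocytes depend on this relay because they export large amounts of disulfide-bonded plasma proteins such as albumin. Several PDI genes, together with ER chaperones such as BiP (*Hspa5*), are targets of the unfolded protein response, the transcriptional program by which cells adjust ER folding capacity.

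Total counts lay between 30380360 and 38422243 in KO, between 29840366 and 30364098 in WT and between 32360709 and 35335070 in KI. A newly assembled transcript without annotation took 11.3% to 17.1% of the counts in WT, against 4.32% to 6.44% in KO and 4.82% to 9.12% in KI. Levels are given as library-scaled counts (CPM) after edgeR's TMM method, which refers each gene to the bulk of the genes, on 1 scale for all 11 libraries. Over all genes the median log2 fold change was -0.03 in KO and -0.02 in KI against WT on this scale, and 0.38 and 0.30 with plain library totals. How much of this gap comes from the unannotated transcript was not tested. The lines differed broadly: genes are named as called where the quasi-likelihood test of edgeR gave an adjusted p (Benjamini-Hochberg) under 0.05, which was the case for 55.1% of the genes tested between KO and WT, 42.3% between KI and WT and 54.0% between KO and KI. The hepatocyte markers summed to 9744 to 11589 CPM in KO, 7384 to 9433 in WT and 8572 to 10151 in KI, with *Apoa2* at 0 counts in WT and KI and at no more than 1 count in KO. The order of these sums rests on *Alb*, with 3589 to 4767 CPM in KO and 373 to 739 CPM in WT, and without *Alb*, left out after its values were seen, they were 6111 to 6822 CPM in KO, below the 6958 to 9060 CPM of WT and the 8412 to 9893 CPM of KI. By gene, 4 of the 9 hepatocyte markers tested were called higher in KO than in WT and 3 lower, where library totals gave 5 and 3. Higher were *Alb* (log2 fold change 2.99), *Apoa1* (3.77), *Hnf4a* (1.35) and *Apob* (0.66). *Serpina1a* (-3.65), *Trf* (-1.16) and *Ttr* (-0.93) were lower. The markers of cholangiocytes, the bile duct cells, summed to 1339 to 1504 CPM in KO, 2974 to 4379 in WT and 2604 to 3083 in KI. *Epcam* was at 0 throughout. Here *Spp1* (211 to 282 CPM in KO and 1945 to 3288 CPM in WT) set the order. Without it, also left out afterwards, the sums were 1086 to 1221 CPM in KO, 861 to 1091 in WT and 709.6 to 974 in KI. Of these markers 1 was called higher and 3 lower in KO than in WT. *Krt19* was higher (log2 fold change 0.49, adjusted p = 0.0117, edgeR). Lower were *Krt7* (-3.4, adjusted p = 2.32e-08, edgeR), *Spp1* (-3.38, adjusted p = 4.23e-07, edgeR) and *Sox9* (-0.47, adjusted p = 0.0297, edgeR). The call of *Sox9* was lost with library totals (-0.07). *Cd14* made up nearly all of the 374 to 669 CPM of leukocyte markers, whose *Adgre1* was at 0. The 3 leukocyte markers tested were called lower in KO than in WT, at -3.45 (*Ptprc*), -1.98 (*Cd68*) and -0.45 (*Cd14*). That of *Cd14* was not called with library totals (-0.02), and *Ptprc* and *Cd68* reached at most 2.77 and 7.29 CPM. The fibroblast and endothelial markers reached at most 1.65 and 0.425 CPM. The part of these marker differences in the results was not tested, and in bulk RNA fewer cells expressing a gene cannot be told apart from less RNA per cell.

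The site of the KO break is shown because it lies inside the first gene described. On the reference genome GRCm38 the guide matches the strand from which *Txndc5* is read, in coding exon 5 of 10, and it was found in 3 of the 4 annotated transcripts of the gene. The line gives this exon, with the guide target and the TGG next to it in capitals.
Txndc5 exon 5, chr13:38510127-38510242, minus strand: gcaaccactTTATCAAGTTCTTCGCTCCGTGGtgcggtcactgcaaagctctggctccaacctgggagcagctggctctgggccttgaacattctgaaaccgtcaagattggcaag
The table holds 1 count per gene and library, so reads before and after this exon cannot be separated.

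*Txndc5* itself followed the labels of the KO cells, and it was only slightly higher in KI than in WT. Its levels were 10.2, 8.50, 12.9 and 9.39 CPM in KO 5, 6, 7 and 8, against 147, 138 and 143 CPM in WT 5-6, 7 and 8. In KI 5, 6, 7 and 8 they were 158, 179.5, 176 and 163 CPM. No KO library came near a WT library, and every KI library was above every WT library. The KO mean was 7.17% of the WT mean, or -3.81 on the log2 scale (standard error, SE, 0.15; adjusted p = 4.09e-08, edgeR). In KI the mean was 118% of WT, and the log2 fold change of 0.24 (SE 0.12, 95% interval -0.03 to 0.51) was not called, with an adjusted p of 0.136 in edgeR's test. On the scale of library totals this difference was 0.57 and called (adjusted p = 0.00623, edgeR). The order of the levels was thus KO, WT and KI, with WT and KI as neighbours that were not told apart on the TMM scale.

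**Figure D1:**
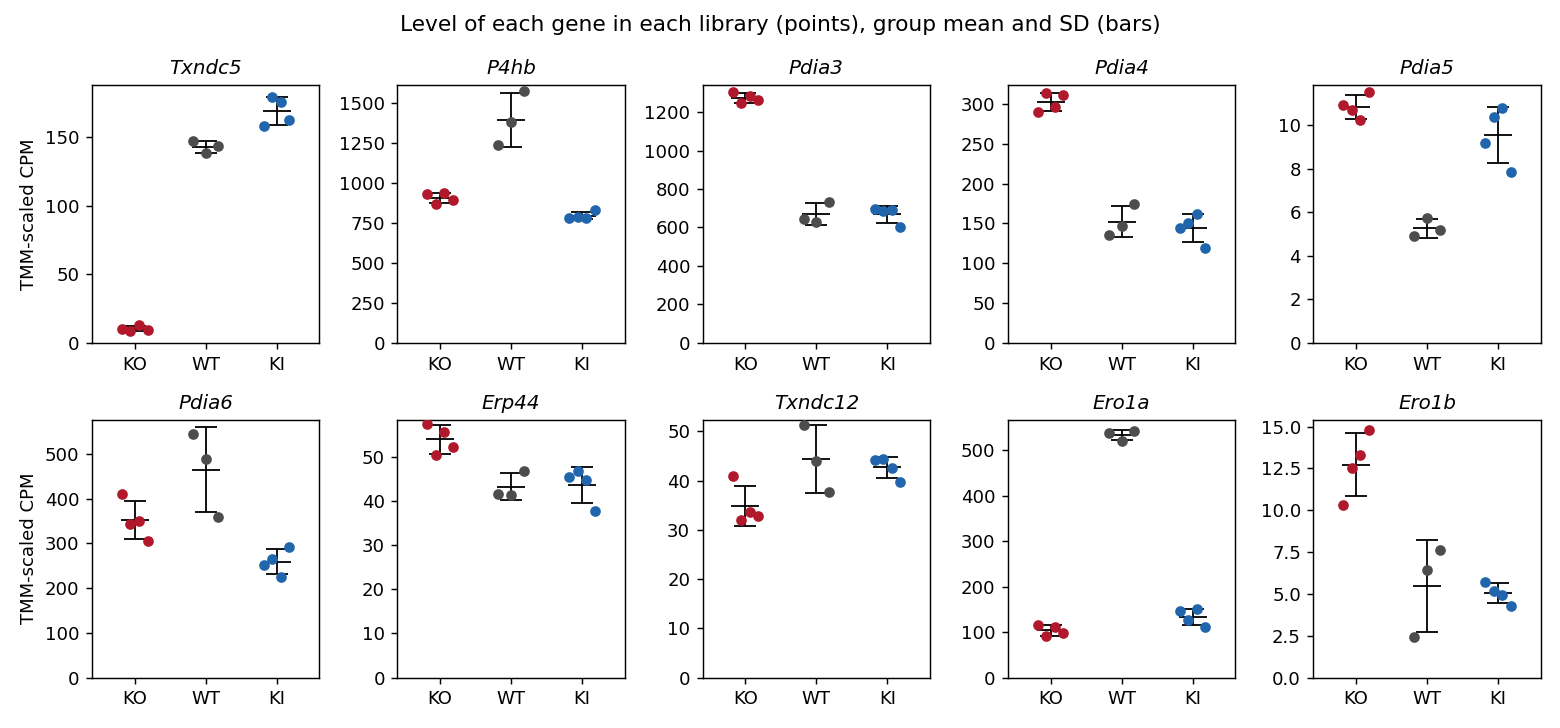
Level of each of the 10 genes, in TMM-scaled CPM on an axis that starts at 0, for KO (n = 4), WT (n = 3) and KI (n = 4); points are libraries, and the bars give the group mean and SD. Txndc5 lies between 8.50 and 12.9 CPM in KO, Ero1a between 519.8 and 541 CPM in WT and at most 150.3 CPM elsewhere, and Pdia3 and Pdia4 are highest in KO.

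Among all 10 genes, every one was called between KO and WT, 5 higher and 5 lower in KO, where 55.1% of all genes tested were called, 26.7% higher and 28.4% lower. The groups did not overlap for 8 of the 10, against 55.3% of all genes tested. Between KI and WT 4 of the 10 were called, 1 higher and 3 lower, against a background of 42.3% (21.2% higher and 21.0% lower), and 5 did not overlap, against 44.7%. Between KO and KI 9 were called, 6 higher and 3 lower in KO, where the background was 54.0% (27.0% higher and 27.0% lower), and 7 did not overlap, against 48.6%. The median log2 fold change of the 10 genes was -0.04 in KO and -0.07 in KI against WT, next to -0.03 and -0.02 for all genes tested. With library totals it was 0.38 and 0.26, next to 0.38 and 0.30. Its members went different ways. The comparisons of KO and of KI with WT share the 3 WT libraries, and their values stand side by side for that reason only.

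*P4hb* encodes PDI itself, the most abundant isomerase in many cells and also a subunit of the prolyl 4-hydroxylase and of the microsomal triglyceride transfer protein. It had 929, 869, 938 and 897 CPM in KO and 1237, 1380.0 and 1574 CPM in WT. In KI it had 782, 789.7, 782 and 829 CPM. Both edited lines were below all WT libraries, and KI was below all KO libraries. Its log2 fold change was -0.64 in KO (SE 0.14, adjusted p = 0.00238, edgeR) and -0.81 in KI (SE 0.15, adjusted p = 0.00088, edgeR). On the scale of library totals the KO difference shrank to -0.24 and was not called (adjusted p = 0.201, edgeR). Between KO and KI the difference of 0.19 was just past the threshold (adjusted p = 0.0492, edgeR) and was no longer called, at 0.18 to 0.21, when any library except KI 8 was left out.

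*Pdia3* (ERp57) works with the lectin chaperones calnexin and calreticulin on glycoproteins, and it had 191% of the WT mean in KO and 100.01% in KI. The KO libraries had 1306, 1247, 1286 and 1260.0 CPM, the WT libraries 643, 627 and 734 CPM and the KI libraries 694, 684, 692 and 603 CPM. KO stood apart from both other groups, whose ranges overlapped. Against WT the log2 fold change was 0.91 in KO (SE 0.13, adjusted p = 0.000188, edgeR). In KI it was 0.0002, with a 95% interval from -0.31 to 0.31 (adjusted p = 0.999, edgeR). The direct difference between KO and KI was 0.94 (SE 0.08, adjusted p = 2.67e-07, edgeR).

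*Pdia4* (ERp72), an isomerase with several active domains of the thioredoxin type, had the same pattern. Its levels were 289, 313, 296 and 311 CPM in KO, 135, 147 and 174 CPM in WT and 145, 151, 161 and 119.5 CPM in KI. Every KO library was above every library of the other lines. It was 199% of the WT mean in KO and 94.7% in KI. In edgeR's test the log2 fold change against WT was 0.97 in KO (SE 0.13, adjusted p = 9.80e-05) and -0.08 in KI (95% interval -0.40 to 0.24, adjusted p = 0.696). KO exceeded KI by 1.07 on the log2 scale (SE 0.10, adjusted p = 2.46e-07, edgeR).

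*Pdia5* (PDIr) is a less studied isomerase with low counts here, between 110 and 501 in all libraries, and it was the 1 gene of the set that was called higher in both edited lines. It had 10.96, 10.7, 10.2 and 11.5 CPM in KO and 9.20, 10.4, 10.8 and 7.88 CPM in KI. In WT it had 4.90, 5.73 and 5.17 CPM, below all libraries of both lines. The log2 fold change was 1.01 in KO (SE 0.16, adjusted p = 0.00033, edgeR) and 0.85 in KI (SE 0.19, adjusted p = 0.00335, edgeR). The difference between the edited lines was 0.19, with a 95% interval from -0.10 to 0.47, and was not called (adjusted p = 0.260, edgeR).

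*Pdia6* (P5), an isomerase that binds BiP, was lowest in KI. Its levels were 252, 265, 226 and 292 CPM in KI, 409.7, 343, 349.9 and 305 CPM in KO and 545, 489 and 359.5 CPM in WT. All KI libraries were below the other 7, while KO and WT overlapped because of WT 8. KI was below WT by a log2 fold change of -0.84 (SE 0.16, adjusted p = 0.00144, edgeR) and KO was above KI by 0.45 (SE 0.10, adjusted p = 0.00184, edgeR). The KO to WT difference of -0.42 was barely called (adjusted p = 0.0491, edgeR). It was not called, at -0.42 to -0.27, when a library other than KO 5 or WT 8 was left out, and with library totals it was 0.01.

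*Erp44* encodes a PDI family protein of the early secretory pathway that retrieves ERO1 and other clients to the ER, and *Txndc12* (ERp18) encodes a small family member with a single thioredoxin domain. *Erp44* had 57.4, 50.3, 55.7 and 52.2 CPM in KO, 41.5, 41.4 and 46.9 CPM in WT and 45.4, 46.8, 44.8 and 37.6 CPM in KI. The KO libraries were the 4 highest, and the difference from WT was 0.30 on the log2 scale (SE 0.12, adjusted p = 0.0483, edgeR). This call was lost, at 0.27 to 0.33, when a library other than WT 8 was left out, while the difference of 0.31 between KO and KI (adjusted p = 0.0119, edgeR) stayed a call in each of the 8 fits that leave out 1 library. *Txndc12* had 40.9, 32.0, 33.6 and 32.7 CPM in KO, 51.3, 44.1 and 37.7 CPM in WT and 44.1, 44.4, 42.5 and 39.7 CPM in KI. KO 5 reached into the range of WT and of KI, and the other 3 KO libraries were below both. Its log2 fold change in KO was -0.37 against WT (adjusted p = 0.0497, edgeR) and -0.29 against KI (adjusted p = 0.0208, edgeR), and the first was not called, at -0.35 to -0.23, when a library other than KO 5 or WT 8 was left out. The second was not called, at -0.28 to -0.25, when a library other than KO 5, KI 7 or KI 8 was left out. With library totals the value against WT was 0.06. Neither gene was called between KI and WT, where the log2 fold changes in edgeR's fit were 0.01 and -0.05.

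**Figure D2:**
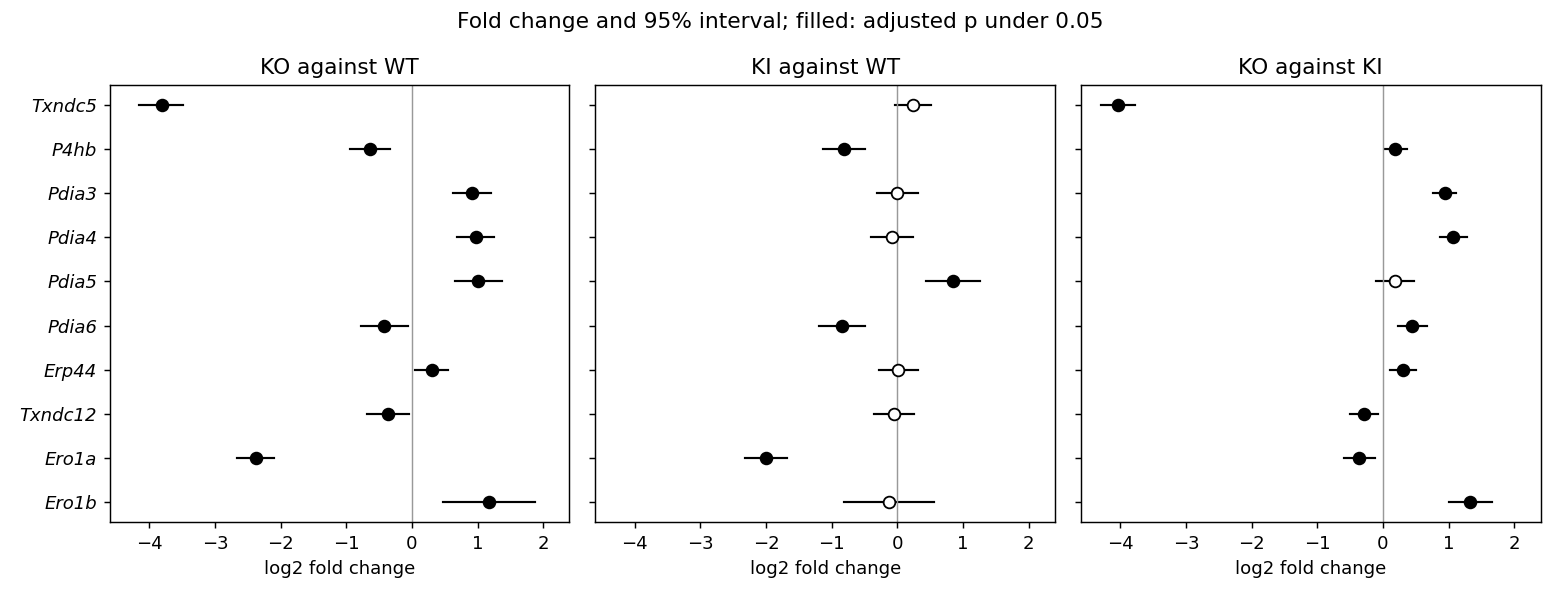
Log2 fold changes of the 10 genes with 95% intervals from edgeR's fit for KO against WT, KI against WT and KO against KI; filled points have an adjusted p under 0.05. All 10 points are filled in KO against WT, 4 in KI against WT and 9 in KO against KI.

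The 2 ERO1 oxidases went opposite ways in KO. *Ero1a*, the widely expressed oxidase that hypoxia induces, had 116, 90.6, 111 and 98.0 CPM in KO. In WT it had 536, 519.8 and 541 CPM, and in KI 146, 126, 150.3 and 110.3 CPM. Both edited lines were far below WT and overlapped each other. The KO mean was 19.5% and the KI mean 25.0% of the WT mean. On the log2 scale these differences were -2.38 (SE 0.13, adjusted p = 2.39e-07, edgeR) and -2.0 (SE 0.15, adjusted p = 1.19e-06, edgeR), so that after *Txndc5* in KO the next largest differences of the set from WT were those of *Ero1a*. They stayed between -2.43 and -2.32 in KO and between -2.06 and -1.92 in KI when each library was left out. Between KO and KI the difference was -0.36 (adjusted p = 0.0131, edgeR), which was not called without KI 5 (-0.31) or without KO 6 (-0.30). *Ero1b*, known for its high level in pancreas and as a target of the unfolded protein response, had between 54 and 643 counts. Its levels were 10.3, 12.5, 13.3 and 14.8 CPM in KO, 2.41, 6.42 and 7.65 CPM in WT and 5.73, 5.18, 4.94 and 4.29 CPM in KI. KO was above both other lines in every library. Against WT the log2 fold change was 1.17 in KO (SE 0.32, adjusted p = 0.00862, edgeR). The WT libraries were spread widely, since WT 5-6 was below the other 2 libraries, and without WT 5-6 the KO value was 0.85 (adjusted p = 0.00556, edgeR). In KI it was -0.13, with a 95% interval from -0.81 to 0.55 (adjusted p = 0.762, edgeR).

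Ratios of counts within a library do not depend on the scaling. *Ero1a* had 6.62 to 11.3 counts for each *Ero1b* count in KO, 24.4 to 30.4 in KI and 70.8 to 223 in WT, so the 3 lines did not overlap. *Pdia3* had 1.37 to 1.43 counts for each *P4hb* count in KO, 0.727 to 0.887 in KI and 0.454 to 0.520 in WT. The ratio of *Pdia4* to *P4hb* had the same order, with 0.312 to 0.360 in KO, 0.144 to 0.206 in KI and 0.107 to 0.110 in WT. For *Txndc5* to *P4hb* the ratio was 0.00978 to 0.0138 in KO, 0.0910 to 0.119 in WT and 0.196 to 0.227 in KI. Both the level of *Txndc5* and the lower level of *P4hb* in KI enter this ratio. Of the 8 ratios computed, that of *Pdia4* to *Pdia6* did not separate the lines, with values from 0.707 upward in KO, 0.409 to 0.715 in KI and 0.248 to 0.484 in WT.

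**Figure D3:**
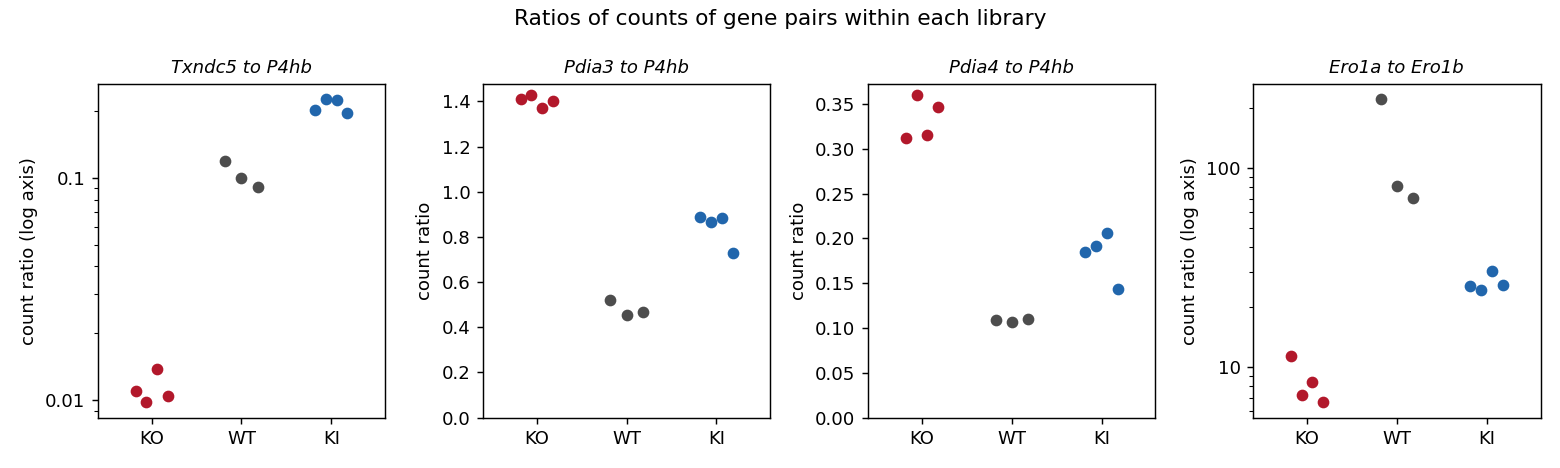
Ratios of counts of 4 gene pairs in each library of KO (n = 4), WT (n = 3) and KI (n = 4); the axes of the first and last panels are logarithmic and the others start at 0. The 3 lines occupy separate ranges in the 4 pairs drawn, unlike the ratio of Pdia4 to Pdia6, with Ero1a to Ero1b at 6.62 to 11.3 in KO and 70.8 to 223 in WT.

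Levels of different genes were compared per kilobase of exon (CPM per kb), with the exon length of coding transcripts. In WT the order from the top was *P4hb* with 488 ± 59.2 CPM per kb (SD, n = 3), *Pdia3* with 241 ± 20.8, *Pdia6* with 214 ± 43.8, *Ero1a* with 121 ± 2.56, *Pdia4* with 63.4 ± 8.23 and *Txndc5* with 42.6 ± 1.30. *Pdia3* and *Pdia6* are neighbours in that order that lie within their spread. *Txndc12* (32.6), *Erp44* (16.5), *Pdia5* (2.91) and *Ero1b* (0.845) followed. In KO *Pdia3* with 460 ± 9.55 CPM per kb (SD, n = 4) took the first place from *P4hb* with 317 ± 10.9, *Txndc5* fell to place 9 with 3.05 ± 0.567, and *Ero1a* went from place 4 in WT to place 6. In KI *P4hb* (278 ± 7.96) and *Pdia3* (241 ± 15.7) again led, *Txndc5* held place 5 with 50.3 ± 3.05 and *Ero1a* place 7 with 30.1 ± 4.17 (SD, n = 4). Neighbours that overlapped between libraries were *Pdia4* and *Txndc5* as well as *Txndc12* (31.4 ± 1.59) and *Ero1a* in KI, and *Txndc12*, *Ero1a* and *Erp44* (places 5 to 7) in KO.

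Added up per kb, the 10 genes gave 1146 ± 37.7 CPM per kb in KO, 1222 ± 39.8 in WT and 833 ± 13.8 in KI (SD). On the TMM scale the KI libraries, from 814 to 847, were below all others. KO (1116 to 1194) and WT (1194 to 1268) overlapped there by less than 1 CPM per kb. Every WT library had a lower TMM factor than every KO and KI library, which raises the WT sums against the others. The place of KI and the order of KO and WT can thus depend on the scaling. They were not tested with library totals. Of the sum of the 10 genes *Txndc5* made up 0.227% to 0.332% in KO, 3.37% to 3.67% in WT and 5.64% to 6.32% in KI. *P4hb* made up 36.2% to 43.4% in WT, 32.6% to 35.6% in KI and 27.2% to 28.3% in KO, and the share of *Pdia3* was 18.8% to 20.9%, 26.7% to 29.96% and 39.5% to 40.8% in the same order. The shares are parts of 1 sum, so a rise of 1 gene lowers the share of the others.

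**Figure D4:**
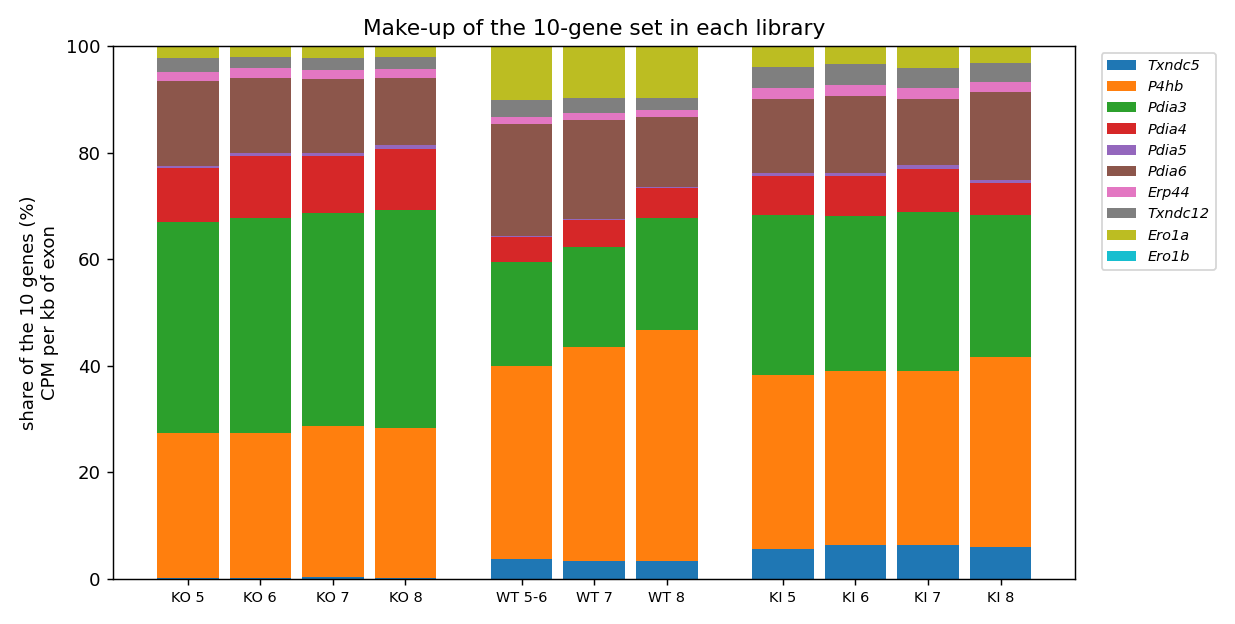
Share of each gene in the summed level of the 10 genes (CPM per kb of exon, in percent), with 1 bar for each library of KO, WT and KI. The Pdia3 share is 39.5% to 40.8% in KO and 18.8% to 20.9% in WT, and Ero1a makes up 9.67% to 10.2% in WT but at most 4.07% elsewhere.

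The promoters were searched for the response elements of the pathways above, since several of the genes are known targets of ER stress or hypoxia. RefSeq windows of GRCm38.p6, from 250 bases before to 50 after each start, were found for all 10 genes (13 windows, 3 of them for *Txndc5* and 2 for *Erp44*) and searched on both strands beside all 32851 windows. The ER stress response element, CCAAT and CCACG with any 9 bases between them, was in windows of *Pdia6* and *Ero1b* and in 0.119% of all windows. Without its last base, in a form tried after the promoters had been seen and which every match of the first also meets, it was also in those of *Pdia3* and *Pdia4* and in 0.365% of all windows. The lines show these matches in capitals, in the direction of the gene, with *Pdia4* and *Ero1b* holding the element on the opposite strand.
Pdia3, chr2:121413873-121413890, plus strand: CCAATCGGCGGCTGCCAC
Pdia4, chr6:47813582-47813639, minus strand: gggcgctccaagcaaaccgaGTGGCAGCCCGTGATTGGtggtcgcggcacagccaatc
Pdia6, chr12:17266471-17266529, plus strand: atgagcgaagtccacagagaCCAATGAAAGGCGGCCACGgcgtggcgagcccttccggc
Ero1b, chr13:12565662-12565720, plus strand: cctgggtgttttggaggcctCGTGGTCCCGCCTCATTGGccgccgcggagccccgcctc
Of the 2 genes with the full element, *Ero1b* was called higher in KO than in both WT and KI. *Pdia6* was called higher in KO than in KI and lower than in WT. *Pdia3* and *Pdia4*, which matched only the shortened form, were called higher in KO than in both. Among the 6 genes without a match, *Erp44* was also called higher in KO than in both, and *Pdia5* higher than in WT only. Since the shortened form was tried afterwards, these lists test no link between the element and the level. The unfolded protein response element TGACGTGG was in 1 of the 3 windows of *Txndc5* and in 0.676% of all windows. The core of the hypoxia response element, ACGTGC, was in windows of *Ero1a*, *Erp44* and *Txndc5* and in 5.91% of all windows. TGATGNAAT, a form of the element bound by ATF4 and CHOP, was in none of the 13 windows and in 0.965% of all. A match of letters is a description and not a site.

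Other genes of the PDI family were mostly lower or not called on the TMM scale. Of 14 listed, *Pdia2*, *Pdilt*, *Erp27*, *Agr2* and *Agr3* had too few counts, and of the 9 tested 1 rose and 5 fell in KO against WT (6 of 9 called, against 55.1% of all genes, with a median log2 fold change of -0.38), where library totals gave 2 and 3 (median 0.03). In KI 0 rose and 4 fell (4 of 9, against 42.3% of all genes, median -0.48), and library totals gave 0 and 3 (median -0.15). *Tmx1*, a membrane-bound isomerase, fell in KO by 1.23 on the log2 scale (adjusted p = 1.27e-05, edgeR), with 29.0 to 30.1 CPM there and 60.8 to 76.5 CPM in WT. *Txndc16* fell by 1.51 in KO and by 1.19 in KI, and *Txndc11* was higher by 1.10 in KO. *Dnajc10* (ERdj5), a reductase of ER-associated degradation, had 468 to 505 CPM in KI and 914 to 1565 CPM in WT, a log2 fold change of -1.27 (adjusted p = 0.000149, edgeR), whereas in KO it was -0.20 and not called.

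Among the oxidases and peroxidases that act beside ERO1, the largest difference between KI and WT was that of *Prdx4*, the ER peroxiredoxin that uses hydrogen peroxide to oxidize PDIs. It had 16.1, 16.8, 13.6 and 19.4 CPM in KI against 155, 137 and 71.0 CPM in WT. The KO libraries had 92.7, 81.8, 81.6 and 69.7 CPM. KI was below all other libraries, and WT 8 lay with the KO libraries rather than with the other WT libraries. In KI the log2 fold change was -2.88 (SE 0.23, adjusted p = 2.52e-06, edgeR), a larger difference than that of *Ero1a* in the same cells, and in KO it was -0.59 (adjusted p = 0.0426, edgeR), which with library totals was -0.14 and not called. *Gpx7* was too low to test. *Gpx8* could be tested only with the KI libraries, where it had 0.653 to 1.54 CPM. At 0 in all KO libraries, it was called between KO and KI (adjusted p = 2.89e-05, edgeR). Between KI and WT its log2 fold change of 2.0 was not called (adjusted p = 0.0823, edgeR), though every KI library was above every WT library. With library totals that value was 2.29 and called (adjusted p = 0.0475, edgeR). Of the 5 genes tested in KO against WT, 3 rose and 1 fell (background 55.1%), while library totals gave 4 and 0. The 3 were *Vkorc1*, *Vkorc1l1* and *Qsox2*, with log2 fold changes of 0.59, 0.79 and 0.73 in edgeR's fit. In KI *Vkorc1* fell by 0.56 and *Vkorc1l1* was higher by 0.39, and of 6 tested 1 rose and 2 fell (background 42.3%), where library totals gave 2 and 1 and no call of *Vkorc1*.

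Among 10 partners of the PDIs, *P4ha3* was too low to test. Of the other 9, 3 rose and 4 fell in KO against WT, next to 55.1% called over all genes, where library totals gave 5 and 2. In KI 0 rose and 3 fell, a smaller share than the 42.3% over all genes, where library totals gave 1 and 1. *Hspa5*, called higher in KO and lower in KI, is in this list and also among the genes reporting unfolded protein stress below. *Calr*, the lectin chaperone that recruits *Pdia3*'s product, had 775 to 869 CPM in KO and 329 to 484 CPM in WT (log2 fold change 1.06, adjusted p = 0.000242, edgeR), and *Uggt1*, the folding sensor of the same cycle, was higher by 0.77. *Canx* had log2 fold changes of 0.21 in KO and 0.38 in KI and was not called in either. With library totals it was called higher in both, at 0.62 in KO and 0.70 in KI (adjusted p = 0.0027 and 0.00437, edgeR). *Sil1*, a nucleotide exchange factor of BiP, fell by 1.10 in KO and by 0.69 in KI, and *Mttp*, whose product pairs with that of *P4hb*, by 1.00 in KO. The KI call of *Sil1* and the call of *Mttp* were lost with library totals.

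The genes listed as reporters of unfolded protein stress in the ER differed between the edited lines, except *Dnajb9*, which was not called between KO and KI. Of 9 tested, 7 rose and 1 fell in KO against WT (median 0.83, background 55.1%), 1 rose and 5 fell in KI against WT (median -0.51, background 42.3%), and 8 were higher and 0 lower in KO against KI (median 1.28, background 54.0%). With library totals 8 rose and 0 fell in KO, and 1 rose and 2 fell in KI. *Hspa5*, which encodes BiP, had 3060, 2678, 2648 and 2394 CPM in KO, 2023, 1790 and 1408 CPM in WT and 1062, 998, 899 and 1167 CPM in KI. The 3 lines did not overlap, and the log2 fold change was 0.61 in KO (adjusted p = 0.0110, edgeR), -0.76 in KI (adjusted p = 0.0035, edgeR) and 1.39 between KO and KI (adjusted p = 4.50e-08, edgeR). *Creld2* and *Hyou1* were higher in KO than in WT by 1.26 and 1.23, and *Hyou1* also in KI by 0.48. *Hsp90b1* fell by 0.70 in KI and had a log2 fold change of 0.02 in KO, where it was not called. With library totals its KO value was 0.45 and called (adjusted p = 0.00675, edgeR). *Dnajb9*, a target of XBP1, fell by 0.53 in KO, a call lost with library totals. Against WT, the members *Pdia3*, *Pdia4*, *Pdia5*, *Erp44* and *Ero1b* and the partners *Calr* and *Uggt1* were called higher in KO, as were 7 of these 9 genes. The other 5 members, among them *P4hb* and *Pdia6*, were called lower in KO than in WT. Against KI, *P4hb* (0.19) and *Pdia6* (0.45) were called higher in KO, and the call of *P4hb* was lost when any library except KI 8 was left out.

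**Figure D5:**
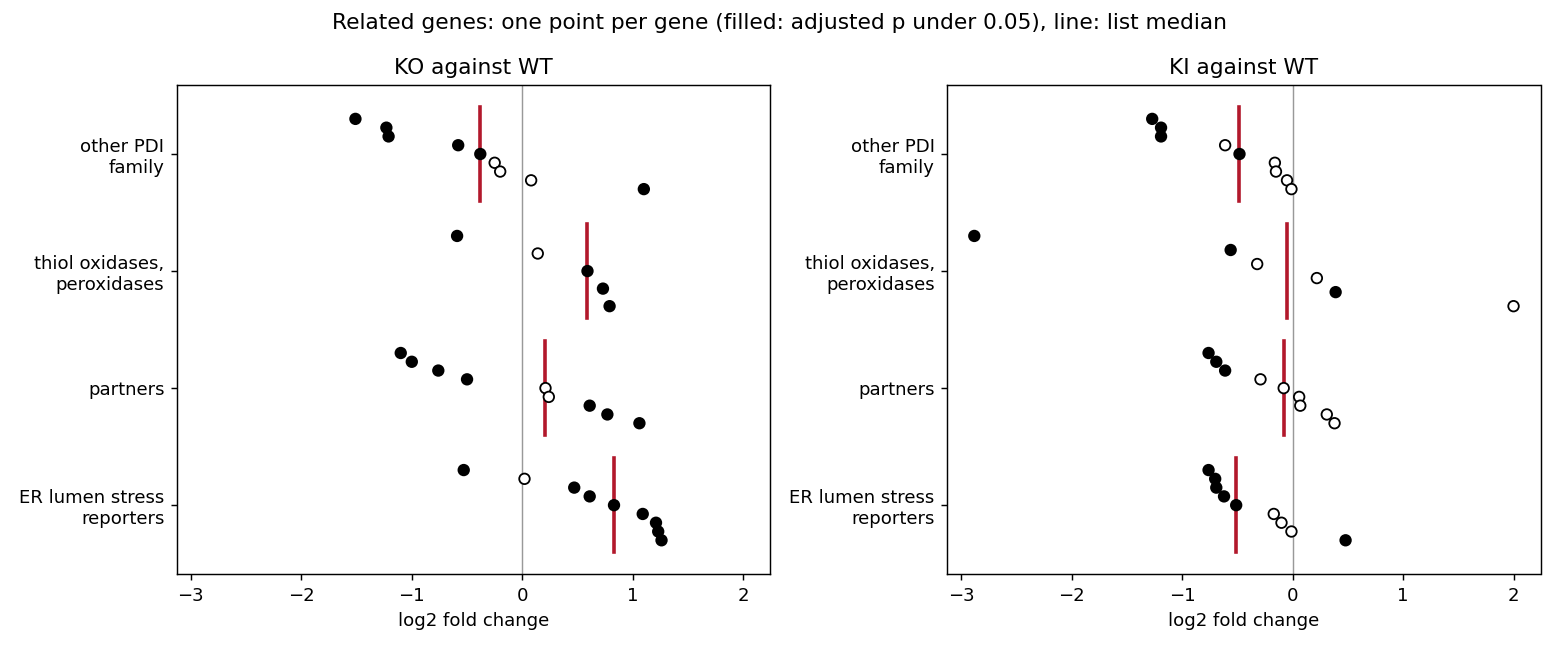
Log2 fold changes of the related genes tested in KO against WT and in KI against WT, with 1 point for each gene, filled where the adjusted p is under 0.05, and a line at the median of each list. The median of the ER stress reporters is 0.83 in KO and -0.51 in KI, and the point at -2.88 in KI is Prdx4.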

How the data were processed

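The authors deposited 1 table of raw read counts per gene for the 11 libraries, 4 KO, 3 WT and 4 KI. The submitters' processing notes name HISAT2, TopHat2, Bowtie2 and StringTie, and the build is not given in the sources used here. The table also holds FPKM values with damaged decimal points and the authors' own DESeq2 comparisons, which were not used. Of 26472 lines, 10 broken ones were left out, and entries that share a name were added up, giving 24849 genes, 2960 of the entries being newly assembled. No per-sample column lacked a sample.

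Each comparison used the libraries of its 2 groups only. Genes that passed filterByExpr of edgeR 4.0.16 (R 4.3.3) entered its quasi-likelihood test with TMM factors, with a prior count of 2 and Benjamini-Hochberg adjustment over all genes tested. An adjusted p under 0.05 was a call. The code was tested on simulated data. Levels are TMM-scaled CPM over all 11 libraries, and lengths are unions of exons of coding transcripts in GENCODE M21 (GRCm38). Alternatives were RLE size factors, library totals, DESeq2 1.42.0, limma 3.58.1 on log2 CPM, no low-count filter, newly assembled entries left out, all 11 libraries in 1 fit, a replicate block and each library left out. Figures were drawn with matplotlib 3.10.9 in Python 3.11.15.

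The 10 genes and the lists of related genes and markers were chosen with earlier results of these data known. From each list of related genes, those named were the 2 with the highest and the 2 with the lowest log2 fold change among genes called in KO or KI against WT. *Canx* was added after its values were seen, and *Gpx8* is also named outside this rule. A floor of 3 counts was at most 1.01e-05% of a library and covers counting error only. No 2 libraries of a group were within counting noise, with a chi-square per degree of freedom of at least 17.2.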

Additional observations from a re-analysis of the deposited data

Results flagged for a closer look

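For the 4 libraries of KO and of KI, Dixon's ratio (the distance of the extreme value from its neighbour, over the whole range) was used to find single libraries that stand apart. Of 20 groups tested (10 genes in KO and in KI), 2 passed the 95% limit, where chance gives 1. The ratio was 0.892 for *Pdia3* in KI, where KI 8 had 603 CPM and the other 3 libraries 684 to 694 CPM. It was 0.830 for *P4hb* in KI, where KI 8 had 829 CPM and the others 782 to 789.7 CPM. Without KI 8, *P4hb* and *Pdia3* kept their calls or their lack of one in both comparisons that use the KI libraries.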

How the results depend on the processing

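Under the alternatives to edgeR with TMM, 385 values of the single genes kept their direction and their side of the threshold, 47 lost a call, 1 gained one and 29 changed sign, 2 of which are also among the lost calls. With library totals in place of TMM 72.8% of the calls over all genes were higher in KO than in WT (48.5% with TMM) and 76.3% higher in KI than in WT (50.2% with TMM). In KO against WT, *Pdia6* was then 0.01 and *Txndc12* 0.06, neither called, and the call of *P4hb* was lost. In KI against WT, *Pdia4* was 0.24, *Txndc12* 0.29 and *Ero1b* 0.15, none of them called, and *Txndc5* was called at 0.57. The other changes of sign were at genes near 0 in KI against WT. *Pdia3* was -0.02 and *Erp44* -0.01 with RLE size factors, with DESeq2 and without newly assembled entries, and *Ero1b* was 0.03 with limma. With each library left out in turn, *Pdia3* ran from -0.04 to 0.07, *Erp44* from -0.02 to 0.08, *Pdia4* from -0.16 to 0.03, *Txndc12* from -0.16 to 0.06 and *Ero1b* from -0.48 to 0.18.

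Of the 10 genes, 7 to 10 were called in KO against WT when each library was left out, 4 in KI against WT and 6 to 9 in KO against KI. Over all genes the calls ran from 6161 to 8449, from 4276 to 6969 and from 6515 to 7230. The calls lost in KO against WT were those of *Pdia6*, *Erp44* and *Txndc12*, which without a low-count filter were also lost, at -0.41, 0.31 and -0.35. *Erp44* also lost it with RLE size factors (0.28) and without newly assembled entries (0.26), and *Pdia6* (-0.41) and *Txndc12* (-0.37) with limma. In KO against KI, *Txndc12* lost its call with library totals (-0.23) and with all 11 libraries in 1 fit (-0.29). *P4hb* in KO against KI lost its call with RLE size factors, without the filter, without newly assembled entries, with all 11 libraries in 1 fit and with the block, at 0.18 to 0.20. The causes were not tested.

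Libraries with the same replicate number correlated weakly across genes (-0.22 to 0.25), and the numbers were not taken as pairs. A replicate block, with 5 and 6 joined for WT 5-6, gave 10, 4 and 8 calls among the 10 genes and 8183, 4891 and 6453 over all genes, with *Pdia3* at -0.003, *Erp44* at -0.0008 and *Ero1b* at 0.02 in KI against WT. In KO against WT the block gave *Pdia6* -0.45 (adjusted p = 0.003, edgeR), *Txndc12* -0.39 (adjusted p = 0.013, edgeR) and *Erp44* 0.31 (adjusted p = 0.0334, edgeR). These calls were just past the threshold without it. Over all genes 7364, 5722 and 7171 were called without the block. In KO against WT, KO 5 (0.19), KO 7 (0.04) and KO 8 (0.25) correlated best with the WT library of their own number, and KO 6 did not. In KI against WT only KI 6 did. The alternative of testing each table entry on its own gave no value, since each gene had 1 entry. With 3 to 4 libraries a group, the widest 95% interval, that of *Ero1b* in KO against WT, spanned 0.48 to 1.87.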

Other observations

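The 5 genes whose log2 levels followed *Txndc5* most closely over the 11 libraries, among 10289 genes compared, were *Cpe* (Pearson r = 0.997), *St8sia4* (0.994), *Prkar2b* (0.992), *Slc39a10* (0.992) and *Krt20* (0.992). The 11 points share 3 lines and their scaling, so r describes these libraries and carries no test. *Cpe*, a carboxypeptidase that processes prohormones, had 91.2 to 108 CPM in KO, 568 to 612 CPM in WT and 751 to 805 CPM in KI. *Krt20*, an epithelial keratin, had 60.3 to 72.9, 202 to 239 and 231 to 284 CPM. *St8sia4*, a sialyltransferase, was at 0 in all KO libraries and had 24.1 to 37.7 CPM in WT and 56.9 to 92.6 CPM in KI.

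Genes beside the edited loci were looked at as well. Next to *Txndc5*, *Bmp6* was too low to test, and *Bloc1s5*, *Eef1e1* and *Slc35b3* fell in KO against WT, by 0.56, 0.72 and 0.93 on the log2 scale (adjusted p = 0.0151, 0.00576 and 0.00109, edgeR). With library totals the first 2 were no longer called. In KI against WT *Slc35b3* fell by 0.72 (adjusted p = 0.00476, edgeR), a call lost with library totals. *Bloc1s5* (-0.05) and *Eef1e1* (0.26) were not called there, and with library totals *Eef1e1* was 0.62 and called (adjusted p = 0.017, edgeR). At the ROSA26 locus *Thumpd3* and *Setd5* were not called in KI against WT, with log2 fold changes of -0.36 and -0.25. *Gt(ROSA)26Sor*, the gene of the locus itself, had no counts under that name. *Thumpd3* fell by 0.69 in KO, a call also lost with library totals, and *Setd5* had 0.00.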
